A study of Mus musculus with 6 samples.

Results

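Cholesterol is built from acetyl units through mevalonate, isoprenoid diphosphates, squalene and lanosterol, and the transcription factor SREBP2 sets the level of most of the enzymes. When sterols in the endoplasmic reticulum run low, the sensor Scap releases its hold on Insig proteins and escorts SREBP2 to the Golgi, where the proteases encoded by Mbtps1 and Mbtps2 free its active part. In osteoclasts the same pathway supplies the isoprenoid anchors of small GTPases, which the cells need for resorption, and its farnesyl diphosphate synthase is the target of nitrogen-containing bisphosphonates. The genes described here are 28 enzymes and regulators of this pathway, taken by symbol from a fixed list out of the 16775 genes of the table. All 28 had a row, and all 28 passed the filter on low counts that left 12619 genes for testing.

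RNA-seq libraries had been made from osteoclasts, the multinucleated cells that resorb bone, grown from bone marrow macrophages of wild-type mice with 30 ng/ml M-CSF and 50 ng/ml RANKL in medium with 10% serum. Treated cultures also received verapamil, a blocker of L-type calcium channels that also inhibits the drug efflux pump P-glycoprotein, and the comparison asks how the drug alters gene expression. There were 3 verapamil libraries and 2 control libraries (replicates 1 and 3), because the counts used here held no values for control replicate 2. Titles of both groups give day 5, whereas the protocol has medium changes up to day 7. The labels give neither the dose and timing of verapamil nor a vehicle for the controls, and they do not name the strain, sex or age of the mice. Total estimated counts were 20202340 to 21494523 per library. The series text speaks of 3 pairs without saying what the libraries of a pair share. Whether replicates were separate cultures or animals is not stated, so the p-values rest on a spread between libraries that may be only technical.

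RNA of nearly every enzyme from acetoacetyl-CoA to cholesterol was a larger share of the counts in verapamil-treated osteoclast cultures than in controls. Of the 28 genes, 22 were higher and 0 lower with verapamil in edgeR's quasi-likelihood test at a Benjamini-Hochberg adjusted p under 0.05, and 22 also had an unadjusted p under 0.05. Among all tested genes the same test called 25.4%, of which the higher ones were 9.99% of tested genes and the lower ones 15.4%. The median log2 fold change was 1.27 over the 28 genes and -0.01 over all tested genes. The largest rise was that of Lss, the lanosterol synthase, at 4.69-fold. Among the 18 enzymes that lead from acetoacetyl-CoA to cholesterol 17 rose, with Ebp the exception, while of the 6 genes of the SREBP2 machinery 3 rose. Levels in every verapamil library lay above every control library for 24 of the 28 genes, and this was so for 27.7% of all tested genes. The summed level of the 18 enzymes was 1733, 1592 and 1687 CPM (counts scaled to library size after TMM normalization) in the verapamil libraries and 659 and 599 CPM in the controls, a ratio of group means of 2.66.

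The promoters of some of these genes are shown because the members moved together and SREBP2 is known to act at sterol regulatory elements close to binding sites of NF-Y and Sp1. Entries from RefSeq on GRCm38.p6, from 250 bases before to 50 bases after the start site, were found for 24 of the 28 genes. Capitals mark matches on either strand to the sterol element core TCACNCCAC, to the looser form CACNNCAC, which lies within every match of the core, to the E-box CACGTG and to the NF-Y box CCAAT. Lss, Idi1 and Insig1, chosen after their values were seen, stand for strong rises, and Hmgcs1 for a rise with the core element. Ggps1 and Tmem97 are the 2 members with the smallest log2 fold changes.
Lss: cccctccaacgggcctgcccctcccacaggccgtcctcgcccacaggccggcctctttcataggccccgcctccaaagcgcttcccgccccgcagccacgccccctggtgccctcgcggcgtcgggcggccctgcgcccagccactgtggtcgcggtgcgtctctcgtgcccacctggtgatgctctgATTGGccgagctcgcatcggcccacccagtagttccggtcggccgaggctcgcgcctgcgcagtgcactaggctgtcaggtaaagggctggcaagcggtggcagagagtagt
Idi1: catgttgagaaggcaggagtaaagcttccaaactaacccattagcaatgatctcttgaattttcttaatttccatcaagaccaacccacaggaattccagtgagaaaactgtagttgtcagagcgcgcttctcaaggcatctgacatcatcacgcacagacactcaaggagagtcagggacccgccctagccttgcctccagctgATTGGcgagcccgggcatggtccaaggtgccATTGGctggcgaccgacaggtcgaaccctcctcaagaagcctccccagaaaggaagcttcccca
Insig1: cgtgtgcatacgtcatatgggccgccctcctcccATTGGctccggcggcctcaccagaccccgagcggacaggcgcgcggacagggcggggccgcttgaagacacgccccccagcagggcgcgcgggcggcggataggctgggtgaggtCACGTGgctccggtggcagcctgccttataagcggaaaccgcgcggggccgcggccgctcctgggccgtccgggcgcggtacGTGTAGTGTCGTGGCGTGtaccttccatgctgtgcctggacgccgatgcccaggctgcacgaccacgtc
Hmgcs1: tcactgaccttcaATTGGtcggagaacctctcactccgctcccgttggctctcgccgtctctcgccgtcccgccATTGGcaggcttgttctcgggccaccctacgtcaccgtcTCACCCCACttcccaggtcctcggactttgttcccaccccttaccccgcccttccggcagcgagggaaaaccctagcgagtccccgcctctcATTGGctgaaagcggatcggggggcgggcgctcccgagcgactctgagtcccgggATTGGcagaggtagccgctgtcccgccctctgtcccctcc
Ggps1: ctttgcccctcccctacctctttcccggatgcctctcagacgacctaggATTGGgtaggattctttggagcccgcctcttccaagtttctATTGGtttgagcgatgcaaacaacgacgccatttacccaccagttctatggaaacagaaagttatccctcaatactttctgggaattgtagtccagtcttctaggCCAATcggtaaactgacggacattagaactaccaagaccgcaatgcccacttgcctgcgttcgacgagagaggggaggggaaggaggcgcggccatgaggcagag
Tmem97: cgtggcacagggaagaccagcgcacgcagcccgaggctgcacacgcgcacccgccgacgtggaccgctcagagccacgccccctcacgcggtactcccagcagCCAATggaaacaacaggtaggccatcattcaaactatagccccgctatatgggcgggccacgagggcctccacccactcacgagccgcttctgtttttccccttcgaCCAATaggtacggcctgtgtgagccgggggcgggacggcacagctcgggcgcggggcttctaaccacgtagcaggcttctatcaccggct
These windows are chr10:76531355-76531654 (plus strand), chr13:8885356-8885655 (plus), chr5:28071162-28071461 (plus), chr13:119690101-119690400 (plus), chr13:14063439-14063738 (minus) and chr11:78550686-78550985 (minus). The core element was found in 1 of the 24 members with an entry, Hmgcs1, where it begins 137 bases before the start site. It was found in 1.33% of 10070 tested genes and in 1.44% of all 27025 genes with a promoter entry. The looser form, added after the values were seen, was present in 7 of the 24 members (29.2%), in 18.7% of tested genes and in 18.2% of all genes, with 3 partly overlapping matches at Insig1. E-boxes were present in 5 members (20.8%), against 11.7% of tested genes and 8.09% of all genes.

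NF-Y boxes were found in 20 of the 24 promoters (83.3%), against 43.2% of tested genes and 41.1% of all genes. They were present in 16 of the 18 members with an entry that rose and in 4 of the 6 that did not pass the test, so that Ggps1 and Tmem97 carry them as well as Lss and Hmgcs1. The Sp1 box GGGCGG, left in lower case, was present in 21 members (87.5%), in 68.2% of tested genes and in 38.2% of all genes. A match describes the letters of the window only, and neither a match nor its absence says anything about binding of a factor.

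**Figure D1:**
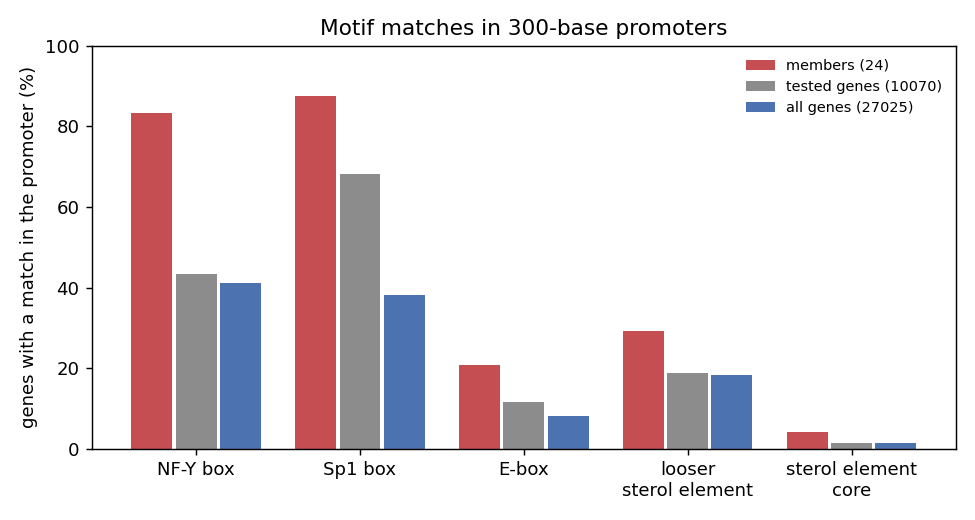
Share of genes, in percent, with at least 1 match of each motif in the 300-base promoter window, for the members with an entry (24 genes), the tested genes (10070) and all genes of the promoter table (27025). The NF-Y box stands at 83.3% of members and 43.2% of tested genes, and the sterol element core at 4.17% and 1.33%.

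The 7 enzymes of the mevalonate segment, which turns acetyl units into farnesyl diphosphate, all rose, with a median log2 fold change of 1.63. Acat2, the cytosolic thiolase that joins the first acetyl units, had 39.8, 30.0 and 36.0 CPM in the verapamil libraries and 11.7 and 9.26 CPM in the controls, which gave a log2 fold change of 1.75 with SE 0.18 (edgeR adjusted p = 0.00162). Hmgcs1, the synthase of HMG-CoA, had 208, 206 and 213 CPM with verapamil and 86.3 and 89.7 CPM in controls (log2 1.25, SE 0.0917, adjusted p = 0.000669). Values of Hmgcs1 were close within each group, those of Acat2 were spread more, and the groups of neither gene overlapped. The gene Acat3 has 97.7% identity to Acat2 over 65.6% of the transcript and stood at 0 to 0.258 CPM in every library. Mvk, the mevalonate kinase, had 15.2, 14.0 and 15.5 CPM with verapamil and 8.81 and 5.89 CPM in controls (log2 1.02, SE 0.19, adjusted p = 0.0124). Pmvk, the next kinase, had 18.2, 13.3 and 16.2 CPM with verapamil and 9.08 and 8.28 CPM in controls (log2 0.88, SE 0.17, adjusted p = 0.0134). These 2 kinases had the smallest rises of the segment. Both calls were lost without verapamil replicate 1 (adjusted p = 0.0594 for Mvk and 0.0571 for Pmvk) or without verapamil replicate 3 (0.0563 and 0.0608).

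The next 3 enzymes had log2 fold changes close to that of Acat2. Mvd, the decarboxylase that makes isopentenyl diphosphate, had 139, 121 and 119 CPM with verapamil and 44.6 and 28.9 CPM in controls (log2 1.78, SE 0.21, adjusted p = 0.0024). Idi1, the isomerase of isopentenyl diphosphate, had 143, 130 and 146 CPM with verapamil and 39.6 and 40.9 CPM in controls (log2 1.79, SE 0.11, adjusted p = 0.000437). Fdps, the farnesyl diphosphate synthase, had 118, 94.5 and 109 CPM with verapamil and 40.4 and 28.8 CPM in controls (log2 1.63, SE 0.18, adjusted p = 0.00223). In each of the 3 genes the lowest verapamil library was above the highest control, although the controls of Mvd and Fdps differed from each other more than those of Idi1. Several annotated transcripts resemble Fdps, among them Gm3571 with 98.9% identity over 76.8% of the transcript. Another is Gm43738, which shares 26.7% of the Fdps exon bases, so reads could have been split between these genes. Parts of other members also resemble annotated transcripts. Tmem97 matched Gm5809 with 98.9% identity over 38.5% of the transcript, and Fdft1 matched Gm6781 with 97.4% over 33.8%. Idi1 matched Gm13502, among others, with 100% over 22.6%, and Ggps1 matched Gm5630 with 97.2% over 21.3%. Ggps1, which extends farnesyl to geranylgeranyl diphosphate for the anchoring of GTPases and leaves the sterol route, had 25.9, 28.7 and 27.2 CPM with verapamil and 22.6 and 27.8 CPM in controls. Its groups overlapped, and the log2 fold change of 0.11 did not pass the test (95% interval -0.20 to 0.43, adjusted p = 0.538). It was -0.0016 under upper quartile scaling and -0.02 without control replicate 1, and it was 0.27 without control replicate 3 (adjusted p = 0.0467). Passing in such a fit carries little weight, because without control replicate 3 the test called 60.9% of all tested genes, and without control replicate 1 it called 35.3%. These fits take their spread from the verapamil libraries alone, whose pairs varied by a median of 2.06 to 3.84 times the counting variance, against 29.4 times for the control pair.

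**Figure D2:**
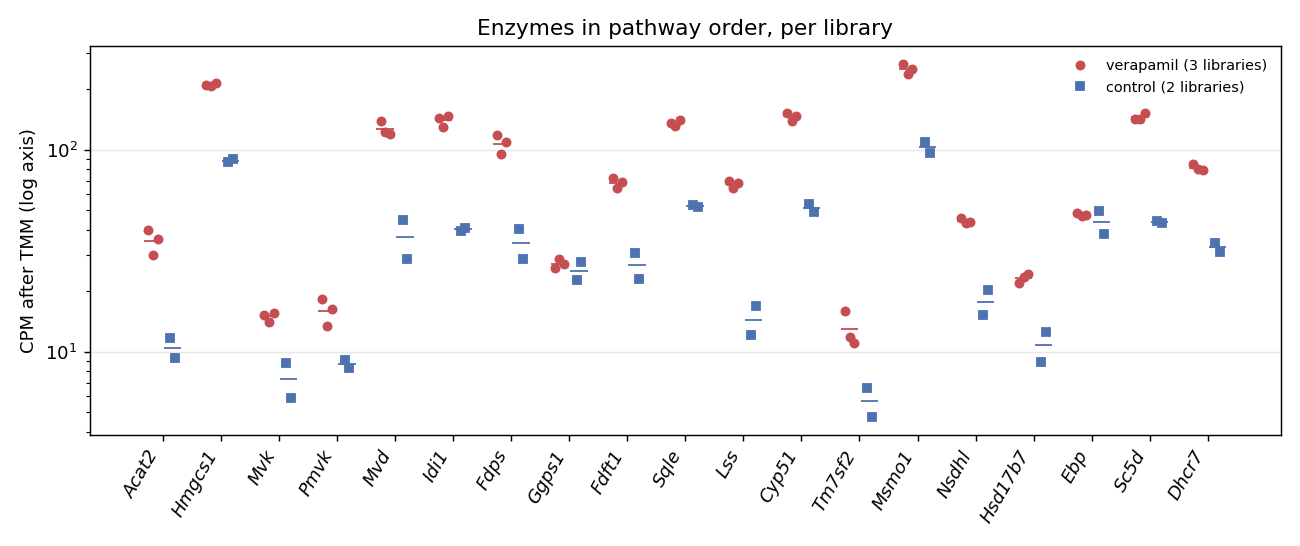
Level of each enzyme in CPM after TMM (log axis), in pathway order from left to right, with 1 point per library and a line at the group mean. Verapamil points lie above the control points for all enzymes but Ggps1 and Ebp, whose points overlap.

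In the squalene segment, where 2 farnesyl units become the first sterol, all 3 enzymes rose. Lss, which closes squalene epoxide to lanosterol, had 69.7, 64.8 and 68.3 CPM with verapamil and 12.05 and 16.8 CPM in controls (log2 2.23, SE 0.17, adjusted p = 0.000699). This was the largest log2 fold change among the 28 genes, and the control values were spread more than the treated ones. Sqle, the squalene epoxidase, had 135, 131 and 139 CPM with verapamil and 53.3 and 52.2 CPM in controls (log2 1.36, SE 0.0949, adjusted p = 0.000598). Fdft1, the squalene synthase, had 72.1, 64.3 and 69.5 CPM with verapamil and 30.9 and 22.8 CPM in controls (log2 1.35, SE 0.16, adjusted p = 0.00253). Fdft1 shares 18.3% of its exon bases with the neighbouring gene Ctsb on the opposite strand, a cathepsin at 22638 ± 813 CPM with verapamil (SD, n = 3) and 16377 ± 1584 CPM in controls (SD, n = 2). Strand use in counting is not stated, so its reads cannot be told apart from those of Ctsb in the shared part.

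The lanosterol segment removes methyl groups and moves double bonds until cholesterol is reached, and 7 of its 8 enzymes rose. Cyp51, the lanosterol demethylase, had 152, 139 and 147 CPM with verapamil and 53.9 and 49.2 CPM in controls (log2 1.50, SE 0.10, adjusted p = 0.000598). Msmo1, the methylsterol monooxygenase, had 266, 237 and 251 CPM with verapamil and 109 and 96.4 CPM in controls (log2 1.29, SE 0.11, adjusted p = 0.00103). Sc5d, the sterol desaturase of the late steps, had 142, 141 and 151 CPM with verapamil and 44.1 and 43.5 CPM in controls (log2 1.72, SE 0.0983, adjusted p = 0.000437). These 3 genes had control pairs that were close together, and the treated libraries stood well above them. Dhcr7, the reductase that yields cholesterol in the last step of one branch, had 84.3, 80.4 and 78.8 CPM with verapamil and 34.7 and 31.1 CPM in controls (log2 1.30, SE 0.11, adjusted p = 0.000865). Nsdhl, the decarboxylating sterol dehydrogenase, rose by 1.33 (SE 0.15, adjusted p = 0.00235), and Hsd17b7, the ketoreductase of the same demethylation complex, by 1.11 (SE 0.17, adjusted p = 0.00636). Both were lower in control replicate 1 than in replicate 3, at 15.1 and 20.2 CPM for Nsdhl and 8.90 and 12.6 CPM for Hsd17b7.

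Tm7sf2, a sterol reductase that acts after Cyp51, had the fewest counts of the 28 genes (1034 over 5 libraries) and stood at 15.9, 11.8 and 11.0 CPM with verapamil and 6.61 and 4.74 CPM in controls (log2 1.19, SE 0.23, adjusted p = 0.0145). It shares 12.1% of its exon bases with Vps51, which had 43.2 ± 2.64 CPM with verapamil and 39.7 ± 7.39 CPM in controls and did not pass the test. Ebp, the sterol isomerase just before Sc5d, was the one enzyme of the segment that did not pass. It had 48.3, 47.0 and 47.2 CPM with verapamil and 49.8 and 38.0 CPM in controls (log2 0.12, 95% interval -0.22 to 0.45, adjusted p = 0.556). The treated values all fell between the 2 controls, so the estimate depends on which control is used. It was 0.33 without control replicate 1 (adjusted p = 0.019), -0.07 without control replicate 3 and -0.01 under upper quartile scaling.

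**Figure D3:**
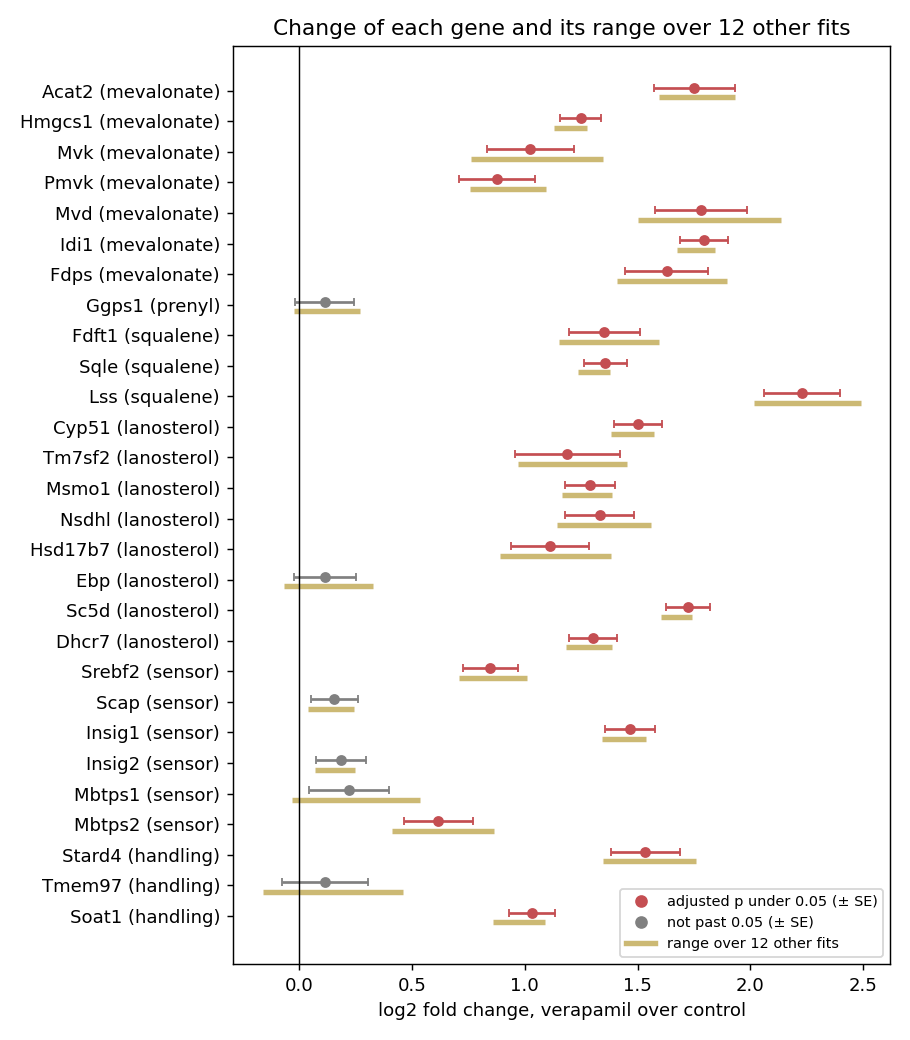
Log2 fold change (verapamil over control) of each of the 28 genes with its SE, in red where the adjusted p is under 0.05 and in grey otherwise, and below each point a bar from the lowest to the highest estimate over 12 other fits. The bars of the 22 called genes stay above 0, while those of Ggps1, Ebp, Mbtps1 and Tmem97 reach below 0.

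The sensor genes did not move as a block. Insig1, the retention protein whose own gene is a classical SREBP2 target, had 199.6, 183 and 213 CPM with verapamil and 74.7 and 69.2 CPM in controls (log2 1.47, SE 0.11, adjusted p = 0.000711). Insig2, its relative with the same retention role, had 36.1, 32.5 and 34.5 CPM with verapamil and 28.9 and 31.4 CPM in controls. All 3 treated libraries were above both controls, but the log2 fold change of 0.19 did not pass the test (95% interval -0.08 to 0.45, adjusted p = 0.251). Per kilobase of merged exon the ratio of Insig1 to Insig2 was 6.22, 6.34 and 6.94 in verapamil libraries and 2.90 and 2.47 in controls. The difference of the log2 ratio was 1.28 with a two-sided exact permutation p of 0.1, the smallest that 10 relabellings of these libraries allow.

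Srebf2, which encodes SREBP2 and is a known target of its own product, had 179, 185 and 186 CPM with verapamil and 91.0 and 113 CPM in controls (log2 0.85, SE 0.12, adjusted p = 0.00485). Scap, the sterol sensor and escort, had 49.2, 48.7 and 47.1 CPM with verapamil and 40.9 and 45.9 CPM in controls, and its log2 fold change of 0.16 did not pass the test (95% interval -0.10 to 0.41, adjusted p = 0.307). Without control replicate 3, in the fit that called 60.9% of all genes, it was 0.24 (adjusted p = 0.0453). The factor gene thus rose, while the difference of its escort was small against the spread between libraries. Mbtps1, the protease of the first cut, had 70.8, 77.9 and 72.1 CPM with verapamil and 50.8 and 75.5 CPM in controls (log2 0.22, 95% interval -0.21 to 0.65, adjusted p = 0.382). Its treated values straddled control replicate 3, and its log2 fold change came to -0.03 when control replicate 1 was left out and to 0.53 when control replicate 3 was (adjusted p = 0.000896, again where 60.9% of all genes were called). Mbtps2, the protease of the second cut, had 63.8, 69.3 and 66.7 CPM with verapamil and 36.6 and 50.2 CPM in controls (log2 0.62, SE 0.15, adjusted p = 0.0319). This call was lost without any one of verapamil replicates 1, 2 and 3 (adjusted p = 0.0979, 0.124 and 0.118), and 28.4% of the Mbtps2 exon bases are shared with Yy2, which had 3.75 ± 0.80 CPM with verapamil and 3.82 ± 0.64 CPM in controls.

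Of the 3 genes for handling finished cholesterol, Stard4 and Soat1 rose. Stard4, a soluble sterol carrier, had 81.1, 86.4 and 91.4 CPM with verapamil and 25.5 and 34.0 CPM in controls (log2 1.53, SE 0.15, adjusted p = 0.0015). Soat1, which esterifies cholesterol in the endoplasmic reticulum for storage, had 734, 811 and 789 CPM with verapamil and 366 and 395 CPM in controls (log2 1.03, SE 0.10, adjusted p = 0.0014). Genes of synthesis and of esterification were thus higher in the same libraries. Tmem97, the membrane protein known as the sigma-2 receptor, had 37.2, 35.1 and 37.8 CPM with verapamil and 41.1 and 26.7 CPM in controls. As for Ebp, the treated values lay between the controls, and the log2 fold change of 0.11 did not pass (95% interval -0.34 to 0.57, adjusted p = 0.674). It was 0.46 without control replicate 1 (adjusted p = 0.00645), -0.16 without control replicate 3 and -0.02 under upper quartile scaling.

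**Figure D4:**
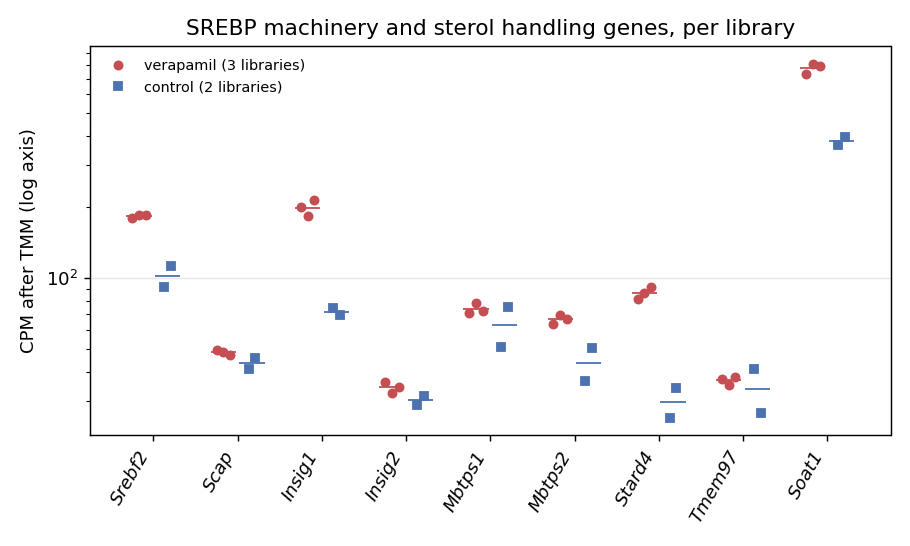
Level in CPM after TMM (log axis) of the 6 genes of the SREBP2 machinery and the 3 sterol handling genes, with 1 point per library and a line at the group mean. Insig1, Srebf2, Mbtps2, Stard4 and Soat1 show separated groups. Those of Insig2 and Scap are also apart, but only by a narrow margin, and those of Mbtps1 overlap. The treated values of Tmem97 lie between its controls.

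Levels of different genes were set side by side only per kilobase of merged exon, which counts all annotated transcripts and so lowers genes with many of them. Soat1 was the highest of the 28 genes at 79.5 CPM per kb with verapamil and 38.9 in controls, and Tm7sf2 the lowest at 2.93 and 1.29. Mvd stood at rank 2 with verapamil (67.9 CPM per kb) and at rank 4 in controls (19.8). Tmem97 was at rank 9 with verapamil (26.7 CPM per kb) and at rank 2 in controls (24.7). Ebp was at rank 13 with verapamil (20.6 CPM per kb) and at rank 6 in controls (19.0). The mean levels of Tmem97 and Ebp did not fall, and their ranks dropped because other genes of the 28 rose past them.

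The 2 controls differed along transcript length, which bears on several members. Control replicate 1 was above control replicate 3 in 15 of the 28 genes and below it in 13, by a median absolute log2 difference of 0.32 against 0.34 over all tested genes. The short genes Tmem97, Mvd and Mvk had 1.54, 1.55 and 1.50 times the level of replicate 3 in replicate 1, the largest ratios of the 28. The long genes Mbtps1 and Lss had 0.67 and 0.72 times. Not every gene followed its length, as the short genes Pmvk and Nsdhl had 1.10 and 0.75 times and the long gene Soat1 had 0.93 times. Over the 28 genes the Spearman correlation of this log2 difference with log exon length was -0.66, and over tested genes with a length it was -0.57. These points share the same 2 libraries and describe them only. The log2 fold change with verapamil had a correlation of -0.04 with log exon length over the 28 genes. With the length trend of each library removed, an alternative added after seeing the data, the 22 calls remained and Ebp and Tmem97 passed as higher (log2 0.28 and 0.42, adjusted p = 0.0388 and 0.0102). The same step raised the share called among all tested genes to 34.1%.

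Other genes of sterol metabolism were counted from lists that hold none of the 28. In a list of 27 further genes for sterol supply, side products and cofactors, 7 of 26 tested were higher (26.9%, against 9.99% of all tested genes) and 4 lower (15.4%, the same share as among all tested genes), with a median log2 fold change of 0.20. Aacs, a ligase that feeds acetoacetate into the route, had 49.1, 43.1 and 46.9 CPM with verapamil and 23.3 and 24.4 CPM in controls (log2 0.96, SE 0.11, adjusted p = 0.00263). Nceh1, a hydrolase of cholesteryl esters chosen after its values were seen, had 525, 519.6 and 522 CPM with verapamil and 269.5 and 311 CPM in controls (log2 0.85, SE 0.10, adjusted p = 0.00285). The 4 members that fell, among them 3 oxysterol enzymes, were lower in every treated library than in either control. Cyp27a1, the sterol hydroxylase of mitochondria, had 37.1, 38.5 and 34.4 CPM with verapamil and 56.5 and 55.8 CPM in controls (log2 -0.62, SE 0.10, adjusted p = 0.00873), and leaving out verapamil replicate 1 or 3 removed its call (adjusted p = 0.0509 and 0.0639). Ch25h and Cyp7b1, which hydroxylate cholesterol and oxysterols, rested on 118 and 72 counts in all, at 0.70 ± 0.02 and 0.42 ± 0.07 CPM with verapamil (SD, n = 3) and 1.66 ± 0.25 and 1.03 ± 0.01 CPM in controls (SD, n = 2), with edgeR adjusted p = 0.0173 and 0.0278. Neither passed DESeq2's Wald test (adjusted p = 0.0584 and 0.13). Both calls were also lost without any one of verapamil replicates 1, 2 and 3. The fourth that fell was Acat1, the mitochondrial thiolase of ketone body and isoleucine metabolism (log2 -0.56, SE 0.12, adjusted p = 0.0179), a call that leaving out verapamil replicate 2 or 3 removed (adjusted p = 0.0981 and 0.102).

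Genes of the branches that use isoprenoids for other ends were called no more often than tested genes in general. Of 23 genes for prenyl transfer, dolichol and coenzyme Q, 1 was higher (4.35%, against 9.99% of all tested genes). Another 2 were lower (8.7%, against 15.4%), and the median log2 fold change was 0.04. Counts this small do not set these branches apart from other genes. Nus1, a subunit of the dolichol-forming prenyltransferase, had a log2 fold change of 0.31 (adjusted p = 0.0468), Coq3, a methyltransferase of coenzyme Q synthesis, one of -0.63 (adjusted p = 0.0129) and Pdss1, which makes the coenzyme Q tail, one of -0.96 (adjusted p = 0.0298). All 3 calls were lost without any one of verapamil replicates 1, 2 and 3, and that of Nus1 also under upper quartile scaling (adjusted p = 0.188), with no filter on low counts (0.0597) and with a stricter filter (0.0605). A further list held 29 genes for sterol-linked protein degradation and transport of SREBP2, with a median log2 fold change of 0.15. Of 27 tested, 0 were lower, against 15.4% of all tested genes, and 2 were higher (7.41%, close to the 9.99% of all tested genes). They were Fbxw7, a ubiquitin ligase subunit that targets nuclear SREBP proteins, at 51.4, 57.0 and 56.2 CPM with verapamil and 25.1 and 25.8 CPM in controls (log2 1.11, SE 0.11, adjusted p = 0.0014), and Gramd1b, a sterol carrier between plasma membrane and endoplasmic reticulum (log2 0.88, SE 0.17, adjusted p = 0.0127). Leaving out verapamil replicate 2 or 3 removed the call of Gramd1b (adjusted p = 0.0564 and 0.0584).

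Markers of cell types moved with the same contrast. Among all tested genes 15.4% were lower and 9.99% higher. Of 11 osteoclast markers 8 were lower and 1 higher (Atp6v0d2, 1.97-fold), while Itgb3 and Nfatc1 did not pass the test. The summed level of the osteoclast markers was 3356 to 3505 CPM in verapamil libraries and 7091 to 7781 CPM in controls. Among 10 macrophage markers 7 were lower and 1 higher (summed 5942 to 6124 CPM and 8875 to 9925 CPM). The higher one was Mertk (1.58-fold), and Mrc1 and Cd68 did not pass. Among 11 tested stromal and osteoblast markers 9 were lower and 0 higher (454 to 473 CPM and 1042 to 1233 CPM), and Lepr and Runx2 did not pass. Adipocyte markers were near 0, at a summed 0.0493 to 0.197 CPM with verapamil and 0.171 to 0.225 CPM in controls. Their part in the rise of the cholesterol genes was not tested, and in bulk RNA fewer cells of a type and less RNA per cell cannot be told apart.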

How the data were processed

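The authors deposited estimated counts of reads per gene with 2 decimals, not normalized between libraries, as judged from the values. The submitters' processing notes name the builds GRCm38 and mm10. Not given in the sources used here were the aligner, counting program and strand use. Per the labels' protocols, libraries were made with a SMARTER mRNA kit from 1.3 ug of total RNA.

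Estimated counts were rounded to integers, and edgeR 4.0.16 (R 4.3.3) scaled 5 libraries by TMM, applied its expression filter (minimum count 10, minimum total 15) and fitted a quasi-likelihood model with group as the only term (3 residual degrees of freedom). P-values were adjusted by Benjamini-Hochberg over 12619 genes, and genes were called under 0.05. Values are CPM after TMM. SEs restate the edgeR test (log2 fold change over the root of its F statistic), and intervals follow from them. Fits without 1 control assume that the lone control varies like the treated libraries, although the control pair differed far more than the treated pairs.

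The 28 genes and the other lists were chosen with earlier results of these data known. Named were all 28 and, from each other list, up to 4 called genes per direction by smallest p, some of which are not reported here. Alternatives were 2 other scalings, 2 other filters, DESeq2 1.42.0, a replicate block, leaving out each library and removing the length trend. Exon lengths and overlaps come from GENCODE on GRCm38, similar transcripts from blastn 2.17.0, and coordinates and promoters from RefSeq. The planned comparison of Insig proteins was not run.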

Additional observations from a re-analysis of the deposited data

How the results depend on the processing

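Direction and call of the 22 genes that rose held under the other scalings, the other filters on low counts, DESeq2's Wald test, the replicate block and removal of the length trend. Counts of members called were 19 to 25 when 1 library was left out, and the calls lost were those of Mvk, Pmvk and Mbtps2. With the replicate block 22 members, 3317 of all genes, 8 sterol, 3 prenyl and 2 degradation genes were called, on 1 residual degree of freedom. Of those 3 prenyl genes 1 was among the 3 called without the block, and the block ended the calls of Nus1 (adjusted p = 0.246), Pdss1 (0.0702), Acat1 (0.0553) and Cyp7b1 (0.0598). Replicate 1 minus replicate 3 had a correlation of 0.19 across genes between the groups, and the series text speaks of 3 pairs without saying what a shared number stands for. Estimates fell below 0 under upper quartile scaling for Ebp (-0.011), Tmem97 (-0.015) and Ggps1 (-0.0016). When 1 library was left out, log2 fold changes ran between -0.033 and 0.53 for Mbtps1, -0.023 and 0.27 for Ggps1, -0.065 and 0.33 for Ebp, and -0.16 and 0.46 for Tmem97. Upper quartile scaling shifted the median of all genes to -0.13 and that of the 28 to 1.15, and the calls over all genes to 915 higher and 2331 lower, against 1261 and 1939 of 3200 under TMM. Leaving out 1 library gave 1460 to 7808 calls over all genes, 5 to 19 in the sterol list, 0 to 13 in the prenyl list and 1 to 18 in the degradation list. The degradation list had 4 calls by DESeq2 and 4 with the length trend removed. The cause was not tested. The looser sterol element gave 29.2% of members in place of 4.17%. Fits without 1 library of either group have fewer residual degrees of freedom, and those without a control also hold no spread between controls.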
